A study of Homo sapiens with 6 samples.

Results

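EGFR, ERBB2, AREG, EREG, HBEGF, TGFA and NRG1 were followed through 19 populations of 2 human cancer cell lines that had been exposed to a targeted drug. The 7 genes were chosen by name, as the receptors EGFR and ERBB2 and the ligands named with them, and all 7 were found in both count tables, which hold 15945 genes for A375 and 15429 genes for PC9. A375 is a BRAF-mutant melanoma line, and its 9 populations were untreated cells and cells adapted by dose escalation to 30, 60, 125, 250 and 500 nM and to 1, 2 and 4 µM of the BRAF inhibitor dabrafenib. PC9 is a lung adenocarcinoma line that carries an activating deletion in EGFR. Its 10 populations were untreated cells, cells adapted by escalation to 8, 16, 32, 75, 150, 300 and 600 nM and to 1.2 µM of the EGFR inhibitor osimertinib, and persisters left after 9 days of acute exposure to 1.2 µM. The populations of each line were tagged, pooled and profiled together by droplet single-cell RNA sequencing, which counts transcripts by unique molecular identifiers (UMIs).

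EGFR is a receptor tyrosine kinase that pairs with itself or with ERBB2, ERBB3 or ERBB4 once a ligand binds, and then signals through the RAS and ERK cascade and through PI3-kinase. ERBB2 binds no ligand of its own and acts as a partner of the other receptors. TGFA, AREG, EREG and HBEGF are made as membrane-bound precursors, are released by cell-surface proteases and bind EGFR, and EREG and HBEGF also bind ERBB4. NRG1 binds ERBB3 and ERBB4. In melanoma cells ERBB3 is the usual route of NRG1 signalling, whereas lung adenocarcinoma lines with mutated EGFR depend on EGFR itself.

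AREG, HBEGF and TGFA differed in the size of their change and in their course over the doses, and EREG was barely detected, so the letters before the start sites of these 4 EGFR ligands are shown. RefSeq promoter sequences (GRCh38.p14) were found for 6 of the 7 genes. Each line gives the 250 bases before the start site, 5′ to 3′ on the gene's strand, for AREG at chr4:74444886-74445135 (plus strand), EREG at chr4:74364895-74365144 (plus strand), HBEGF at chr5:140346604-140346853 (minus strand) and TGFA at chr2:70553827-70554076 (minus strand). For TGFA this is 1 of 2 RefSeq windows, and it lies within the GENCODE bounds of the gene, which reach to 70554193. In the sequences, capitals mark matches to the 4 motifs searched on both strands.
AREG: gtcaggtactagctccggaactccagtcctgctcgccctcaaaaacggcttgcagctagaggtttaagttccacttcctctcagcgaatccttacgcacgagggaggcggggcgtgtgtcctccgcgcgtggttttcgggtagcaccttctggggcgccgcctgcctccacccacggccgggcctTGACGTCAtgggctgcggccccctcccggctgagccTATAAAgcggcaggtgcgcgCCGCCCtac
EREG: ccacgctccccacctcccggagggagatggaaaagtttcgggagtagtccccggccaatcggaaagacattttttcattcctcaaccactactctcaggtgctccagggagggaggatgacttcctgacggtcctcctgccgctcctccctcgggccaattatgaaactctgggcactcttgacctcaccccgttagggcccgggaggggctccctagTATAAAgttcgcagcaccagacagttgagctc
HBEGF: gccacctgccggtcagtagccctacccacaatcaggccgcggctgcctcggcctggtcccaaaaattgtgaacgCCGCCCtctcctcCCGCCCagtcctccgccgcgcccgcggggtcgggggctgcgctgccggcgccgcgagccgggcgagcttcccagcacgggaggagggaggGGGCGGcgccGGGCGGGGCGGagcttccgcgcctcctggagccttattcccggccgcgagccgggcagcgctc
TGFA: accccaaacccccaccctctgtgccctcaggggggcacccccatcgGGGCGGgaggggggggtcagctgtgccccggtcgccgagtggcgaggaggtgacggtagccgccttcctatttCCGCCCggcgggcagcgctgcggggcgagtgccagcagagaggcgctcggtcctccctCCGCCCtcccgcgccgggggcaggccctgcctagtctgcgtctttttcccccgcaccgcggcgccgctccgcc
The motifs were the cAMP response element TGACGTCA, the AP-1 site TGANTCA, the TATA box TATAAA and the GC box GGGCGG. AREG holds a cAMP response element at -65 to -58 from the start site, a TATA box at -29 to -24 and a GC box at -9 to -4. The element occurs in 1.65% of 35116 promoters of this length and the TATA box in 10.7%. EREG holds a TATA box at -32 to -27 and no match to the other 3 motifs. HBEGF holds 5 GC boxes, of which a pair shares 1 base, and the TGFA window shown holds 3, while 42.6% of all promoters hold at least 1. The other TGFA window holds no match to any of the 4 motifs. A match describes the letters and does not show that a factor binds there.

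The A375 table holds 8505 cells and 87053189 UMIs, with 379 to 2011 cells and a median of 7337 to 9804 UMIs per cell in each population. The PC9 table holds 11258 cells and 77210300 UMIs, with 823 to 1410 cells and a median of 5776 to 7968 UMIs. The authors' cell tables list 5059 of the A375 cells and 4208 of the PC9 cells, called listed cells here. How they were chosen is not stated, but g1 in the name of the deposited tables may mean the G1 phase of the cell cycle. MKI67 and TOP2A, genes of dividing cells, had 22.9 and 10.9 CPM in listed and 321 and 302 CPM in unlisted untreated A375 cells, and 83.1 and 31.0 against 253 and 164 CPM in untreated PC9 cells, so a contrast of listed with unlisted cells is also one of cell cycle. The part of the cell cycle in the values below was not tested. The listed cells include 442 of 2011 untreated A375 cells, 169 of 1315 untreated PC9 cells and 673 of 823 persisters. The tables share 27 cell barcodes. SOX10, a regulator of the melanocyte lineage, lay at 29.1 to 211 CPM (UMIs of a gene per 1000000 UMIs of the population) across the A375 populations. Of the pigment cell markers, PMEL, MLANA and TYR stayed at or under 4.42, 1.89 and 0.340 CPM, while DCT lay at 6.55 to 110 CPM. The other melanoma markers listed were MITF at 73.4 to 207.5, S100B at 36.2 to 358, S100A1 at 21.2 to 180 and CSPG4 at 17.3 to 130 CPM. PC9 had the epithelial markers EPCAM at 269 to 441 CPM and KRT19 at 1592 to 1888 CPM. The lung markers NKX2-1, NAPSA and SFTPB were not among the genes counted for this line, so they have no level here. Summed immune markers reached at most 5.02 CPM in A375 and 3.46 CPM in PC9.

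Each population is 1 culture in 1 pool, so no test between conditions exists, and the intervals given are 95% intervals that cover counting error only (exact Poisson for CPM, exact binomial for shares of cells, exact conditional binomial for ratios). CPM values come from sums over all cells of a population. A gene counted as measured if the higher of 2 populations had 10 CPM and 20 UMIs or more, and as apart if the ratio reached 2-fold. All comparisons with untreated cells of a line share those untreated cells. The adapted populations of a line come from a dose escalation, per the labels, and may share a history, so their values are set side by side and are not independent.

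In A375, NRG1 was higher and TGFA lower than in untreated cells at 30 nM and from 500 nM upward, and EGFR had its lowest levels in between. NRG1 was 10.2-fold to 13.5-fold higher at 500 nM to 4 µM than in untreated cells. TGFA was 5.52-fold to 6.93-fold lower in the same 4 populations, with 11.3-fold to 14.2-fold in listed and 3.04-fold to 4.199-fold in unlisted cells. EGFR was 2.81-fold lower at 125 nM and 2.91-fold lower at 250 nM, and was back near the untreated level from 500 nM upward.

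**Figure D1:**
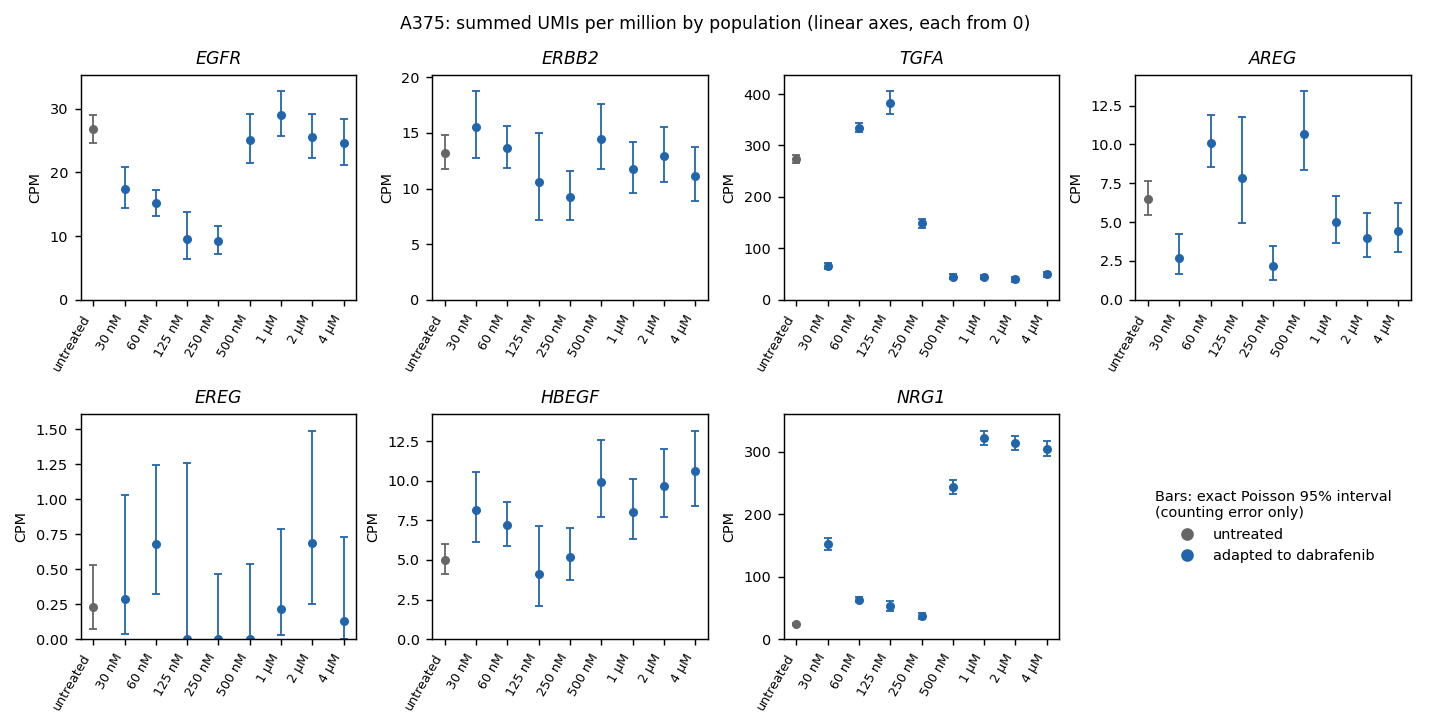
Level of each of the 7 genes in the 9 A375 populations, in CPM on a linear axis that starts at 0 in each panel; the marks are population values and the bars are exact Poisson 95% intervals for counting error. NRG1 lies at 244 to 323 CPM from 500 nM upward and at 23.8 CPM in untreated cells, while TGFA lies at 39.5 to 49.6 CPM from 500 nM upward and at 274 CPM in untreated cells.

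For the receptors, EGFR had 26.8 CPM (24.7 to 29.1) in untreated A375 cells and 17.4, 15.1, 9.53 (6.33 to 13.8) and 9.20 (7.21 to 11.6) CPM from 30 to 250 nM. The 4 populations from 500 nM to 4 µM had 25.1, 29.04 (25.7 to 32.7), 25.6 and 24.6 (21.2 to 28.4) CPM. In the order of levels, untreated cells and the 4 populations from 500 nM upward could not be told apart from their neighbours, 30 nM and 60 nM formed a middle pair, and 125 nM and 250 nM the lowest pair. The 125 nM value rests on 28 UMIs. Listed cells gave 2.03-fold and 2.58-fold lower EGFR at 125 and 250 nM, and unlisted cells gave 3.45-fold and 1.98-fold, so that the 250 nM difference is then under the 2-fold bound. At these doses the listed values rest on 24 and 47 UMIs and the unlisted values on only 4 and 26 UMIs. EGFR at 4 µM was 1.42-fold higher (1.12 to 1.79) than at 30 nM.

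ERBB2 had 13.2 CPM (11.7 to 14.8) in untreated A375 cells and 15.5, 13.6, 10.6, 9.20, 14.5, 11.8, 12.9 and 11.1 CPM from 30 nM to 4 µM. No pair of neighbours in the order of these levels was apart by more than counting error, and no ratio to untreated cells reached 2-fold, the log2 ratios running from -0.48 at 250 nM to 0.22 at 30 nM. Farther apart in the order, ERBB2 at 4 µM was 1.40-fold lower (1.04 to 1.88) than at 30 nM.

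Among the EGFR ligands, TGFA had 274 CPM (267 to 281) in untreated A375 cells and 66.2 (60.3 to 72.5), 335, 382 (360 to 406) and 148 CPM from 30 to 250 nM. From 500 nM to 4 µM it had 45.0, 44.5, 39.5 (35.4 to 43.9) and 49.6 (44.8 to 54.9) CPM. The course was not a steady one: the lowest dose was 4.14-fold below untreated cells (3.76 to 4.56), the next 2 doses were above them on the log2 scale by 0.29 and 0.48, and the 4 highest doses were 6.08-fold (5.42 to 6.84), 6.15-fold (5.57 to 6.82), 6.93-fold (6.22 to 7.75) and 5.52-fold (4.97 to 6.14) below. All these ratios depend on which cells are used. At 30 nM TGFA was 7.52-fold lower in listed and 3.06-fold lower in unlisted cells, and at 250 nM it was 3.19-fold lower in listed and 1.25-fold lower in unlisted cells. At 60 and 125 nM the direction changed. Among listed cells TGFA stood at 435 CPM without drug, and 315 and 382 CPM at these doses, so that both lay below untreated cells, by 0.46 and 0.19 on the log2 scale. Cells outside the authors' tables had 235 CPM when untreated.

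HBEGF, whose precursor is also the receptor for diphtheria toxin, had 5.01 CPM in untreated A375 cells and 8.13, 7.18, 4.08, 5.17, 9.94, 8.05, 9.70 and 10.6 CPM from 30 nM to 4 µM. The 4 µM level was 2.12-fold above untreated cells (1.57 to 2.85). The log2 ratio on the log2(CPM + 1) scale was 0.95. The call was lost in listed cells (9.26 CPM), without cells of high UMI count (8.74 CPM) and with every cell weighted equally (8.20 CPM), where the 4 µM level is under the minimum of 10 CPM, and also after thinning and with a pseudocount of 5. AREG had 6.46 CPM in untreated A375 cells. It was highest at 60 nM (10.1 CPM) and 500 nM (10.7 CPM), and had 2.14 to 7.83 CPM in the other 6 populations. The 60 nM value includes 28 UMIs from a single cell out of 149 UMIs in 71 cells. EREG had between 0 and 10 UMIs in each A375 population and at most 0.684 CPM, so it was near or under the limit of detection. Where it had none, a count of 0 allows up to 1.02 CPM at 125 nM, 0.378 CPM at 250 nM and 0.439 CPM at 500 nM.

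NRG1, the ligand of ERBB3 and ERBB4, had 23.8 CPM (21.9 to 26.0) in untreated A375 cells and 152 (143 to 161), 62.7, 52.4 and 36.8 (32.7 to 41.3) CPM from 30 to 250 nM. From 500 nM to 4 µM it had 244, 323 (311 to 334), 314 and 305 (293 to 318) CPM. All 8 adapted populations were above untreated cells, but the 30 nM population was above the next 3 doses. The ratio to untreated cells was 6.37-fold (5.73 to 7.09), 2.63-fold, 2.20-fold (1.82 to 2.64) and 1.54-fold (1.33 to 1.79) over the 4 lower doses. Over the 4 higher doses it was 10.2-fold (9.26 to 11.3), 13.5-fold (12.3 to 14.9), 13.2-fold (12.0 to 14.5) and 12.8-fold (11.6 to 14.1). In the order of levels 1, 2 and 4 µM could not be told apart, and every other neighbouring pair was apart by more than counting error. NRG1 at 4 µM was 2.01-fold higher (1.87 to 2.16) than at 30 nM, and this 2-fold call was lost in listed cells, without cells of at least 20% mitochondrial UMIs, after thinning and with a pseudocount of 5.

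The untreated NRG1 level rests in large part on cells with many UMIs. In untreated A375 cells, 141 cells (7.01%) held more than 2 times the median UMI count, and they carried 280 of the 524 NRG1 UMIs, at 81.7 CPM against 13.2 CPM in the other cells. TGFA went the other way in the same cells, with 179 CPM in cells of high UMI count and 291 in the rest. Whether such barcodes hold more than 1 cell was not tested. Without cells of high UMI count the NRG1 ratio to untreated cells was 11.3-fold at 30 nM, 19.1-fold at 500 nM and 24.8-fold at 4 µM. In listed cells it was 12.3-fold, 20.9-fold and 24.5-fold, from an untreated level of 11.6 CPM. Unlisted cells gave 6.13-fold, 9.27-fold and 12.6-fold.

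Markers listed for fibroblasts moved in part with NRG1 in A375. Their summed level was 18.5 CPM without drug and 126, 51.2, 49.7, 24.1, 51.2, 56.7, 75.5 and 110 CPM from 30 nM to 4 µM, and 5 of the 7 reached 10 CPM in some population. LUM made up 75.7 of the 126 CPM at 30 nM, and the collagen gene COL1A2 stayed at or under 0.731 CPM. Which cells carried these markers, and whether they bear on the NRG1 values, was not tested. Erythroid markers were not among the genes counted in either line, and summed endothelial markers reached at most 6.37 CPM in A375 and 8.35 CPM in PC9.

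Read against the background of all genes measured, the members of the A375 comparisons with untreated cells were as follows. At 30 nM, 2 of 4 measured members were apart (NRG1 higher, TGFA lower), where 10.0% of all genes were. At 60 nM it was 1 of 5 (NRG1 higher) against 3.27%, at 125 nM 2 of 4 (NRG1 higher, EGFR lower) against 11.2%, and at 250 nM 1 of 4 (EGFR lower) against 10.2%. At 500 nM it was 2 of 5 against 12.2%, at 1 µM 2 of 4 against 14.4% and at 2 µM 2 of 4 against 16.0%, each time with NRG1 higher and TGFA lower. At 4 µM it was 3 of 5 (NRG1 and HBEGF higher, TGFA lower) against 15.4%. Between 4 µM and 30 nM it was 1 of 5 (NRG1 higher) against 6.81%. With so few members, 1 gene moves these shares by a wide margin.

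In PC9, the EGFR ligands AREG, HBEGF and TGFA were lower in the osimertinib-adapted populations than in untreated cells, and NRG1 was higher. Over all cells, AREG was 4.41-fold to 10.4-fold lower, HBEGF 2.32-fold to 4.82-fold lower and NRG1 2.13-fold to 4.23-fold higher across the 8 adapted populations. In listed cells NRG1 from 8 to 150 nM, and HBEGF at 150 nM, 300 nM and 1.2 µM, lay within 2-fold of untreated cells. EGFR itself was lower at every dose, by 1.82-fold at 1.2 µM. Against adapted cells at 1.2 µM, TGFA was the only measured member apart in persisters, where it was near the untreated level. By less than 2-fold, EGFR was 1.39-fold higher and NRG1 1.88-fold lower in persisters. AREG was 2.62-fold higher there, from levels under the minimum of 10 CPM.

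**Figure D2:**
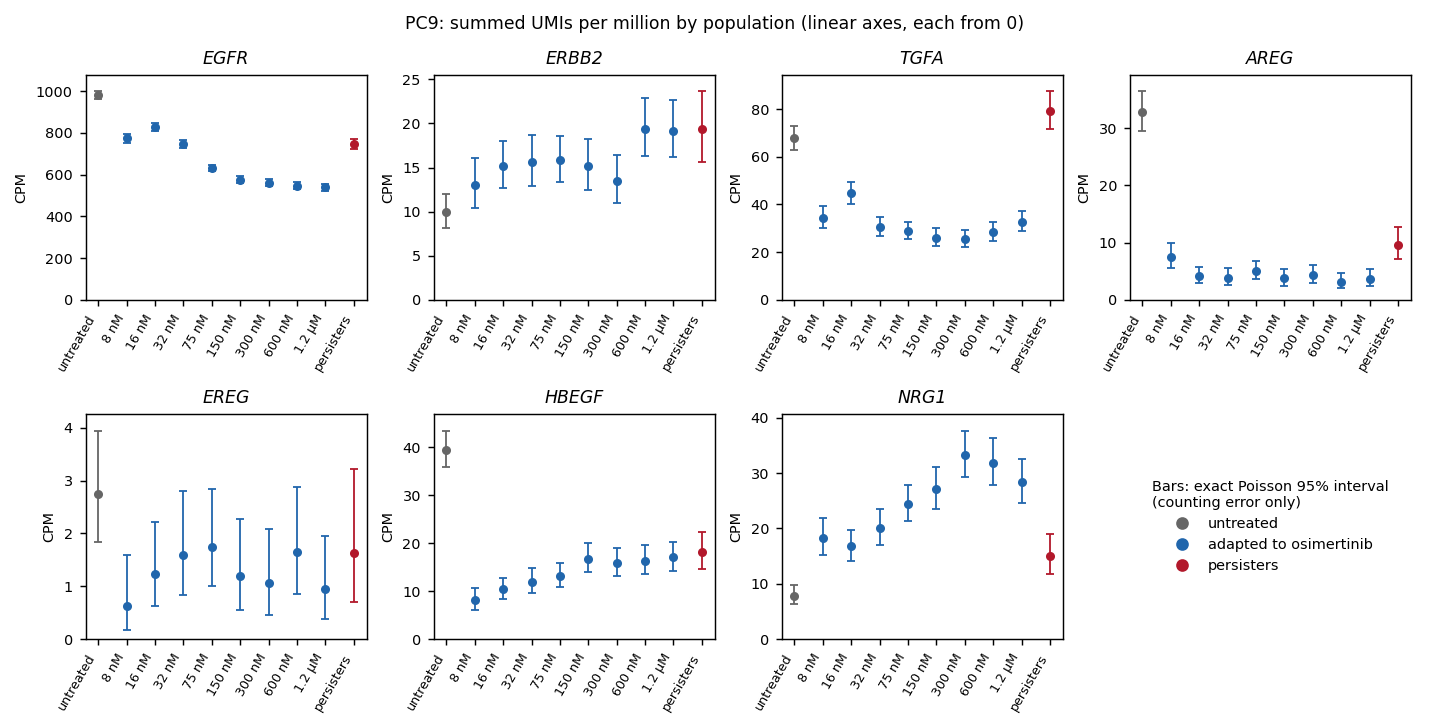
Level of each of the 7 genes in the 10 PC9 populations, in CPM on a linear axis that starts at 0 in each panel; the marks are population values and the bars are exact Poisson 95% intervals for counting error. AREG drops from 32.8 CPM in untreated cells to 7.43 CPM or less in adapted cells, and TGFA lies at 79.2 CPM in persisters against 25.5 to 44.6 CPM in adapted cells.

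EGFR, the target of osimertinib and the mutated receptor of this line, had 981 CPM in untreated PC9 cells and 774, 826, 746, 631, 575, 560, 546 and 539 (522 to 556) CPM from 8 nM to 1.2 µM. It had 747 CPM (723 to 772) in persisters. Untreated cells were highest and 16 nM next, while 150 nM to 1.2 µM held the lowest 4 places and could not be told apart from their neighbours. EGFR at 1.2 µM was 1.82-fold lower than in untreated cells (1.76 to 1.89), and in persisters 1.31-fold lower (1.27 to 1.36). Persisters were 1.39-fold above the adapted cells at the same dose (1.33 to 1.45). In listed cells EGFR had 1124 CPM untreated and 554 at 1.2 µM, which passed 2-fold with a log2 ratio of -1.02.

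ERBB2 had 9.95 CPM (8.14 to 12.1) in untreated PC9 cells and 13.0, 15.2, 15.6, 15.8, 15.2, 13.5, 19.4 and 19.2 CPM from 8 nM to 1.2 µM, and 19.4 in persisters. All 9 treated populations were above untreated cells, although no neighbouring pair in the order of levels was apart by more than counting error. Levels farther apart in the order did differ, with 1.2 µM 1.475-fold above 8 nM (1.12 to 1.96). The ratio to untreated cells was 1.93-fold (1.49 to 2.51) at 1.2 µM and 1.95-fold (1.46 to 2.59) in persisters, just under the 2-fold bound. In listed cells ERBB2 had 10.6 CPM untreated, 22.4 at 600 nM and 24.1 at 1.2 µM, past that bound. The untreated value rests on 12 UMIs and the others on 55 UMIs each.

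AREG, a ligand known as a target of EGFR signalling in epithelial cells, had 32.8 CPM (29.4 to 36.4) in untreated PC9 cells. From 8 nM to 1.2 µM it had 7.43, 4.16, 3.87, 5.02, 3.72, 4.25, 3.16 and 3.65 CPM, and 9.58 (7.04 to 12.7) in persisters. All 9 treated populations lay below untreated cells already from the first dose, and no other neighbouring levels in the order were apart by more than counting error. Levels farther apart in the order did differ, although all were under the minimum of 10 CPM. AREG at 1.2 µM was 2.62-fold lower (1.60 to 4.38) than in persisters and 2.04-fold lower (1.25 to 3.395) than at 8 nM. AREG was 4.41-fold lower (3.26 to 6.10) at 8 nM, 10.4-fold lower (6.80 to 16.6) at 600 nM, 8.99-fold lower (6.07 to 13.8) at 1.2 µM and 3.42-fold lower (2.52 to 4.75) in persisters. Outside the authors' tables the persister difference was smaller, at 20.2 CPM against 30.7 (log2 ratio -0.58), while listed persisters had 6.36 CPM. Against listed untreated cells, at 50.4 CPM, AREG was 11.3-fold lower at 8 nM, 20.7-fold at 600 nM, 19.2-fold at 1.2 µM and 7.92-fold in persisters, from 6 to 24 UMIs each. EREG, which lies beside AREG on chromosome 4, had 2.75 CPM in untreated PC9 cells from 29 UMIs and 0.620 to 1.75 CPM in the other 9 populations from 4 to 16 UMIs, and was not measured in any PC9 comparison by the minimum of 10 CPM.

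HBEGF had 39.5 CPM (35.8 to 43.5) in untreated PC9 cells, then 8.21, 10.4, 12.0, 13.2, 16.8, 15.9, 16.4 and 17.0 CPM from 8 nM to 1.2 µM, and 18.1 in persisters. Untreated cells were apart from all others, and the lowest level was at the lowest dose. HBEGF was 4.82-fold lower (3.61 to 6.54) at 8 nM, 2.32-fold lower (1.90 to 2.86) at 1.2 µM and 2.18-fold lower (1.73 to 2.77) in persisters. It was 2.08-fold higher (1.49 to 2.92) at 1.2 µM than at 8 nM. In listed cells the untreated level was 38.9 CPM, and 150 nM, 300 nM and 1.2 µM, with 24.1, 20.2 and 22.3 CPM, lay within 2-fold of it.

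TGFA had 67.8 CPM (62.9 to 72.9) in untreated PC9 cells and 34.4, 44.6, 30.5, 28.9, 26.1, 25.5, 28.3 and 32.7 CPM from 8 nM to 1.2 µM. Persisters had 79.2 CPM (71.6 to 87.5), the highest of the 10 populations over all cells. TGFA was 2.66-fold lower (2.27 to 3.14) at 300 nM and 2.07-fold lower (1.79 to 2.41) at 1.2 µM, and 1.17-fold higher (1.03 to 1.33) in persisters, which exceeds counting error but not the 2-fold bound. That persister difference was not seen in either set of cells alone: listed cells had 84.3 against 82.2 CPM and unlisted cells 62.5 against 66.0 CPM, below untreated cells. At the same dose of 1.2 µM, persisters were 2.42-fold (2.06 to 2.86) above the adapted cells.

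NRG1 had 7.87 CPM in untreated PC9 cells, then 18.3, 16.8, 20.01, 24.4, 27.1, 33.3, 31.9 and 28.4 CPM from 8 nM to 1.2 µM, and 15.1 in persisters. All 9 treated populations lay above untreated cells, and no other neighbouring levels were apart. Levels farther apart in the order did differ: NRG1 at 1.2 µM was 1.55-fold higher (1.23 to 1.96) than at 8 nM. NRG1 was 2.32-fold higher (1.74 to 3.12) at 8 nM, 4.23-fold higher (3.29 to 5.49) at 300 nM, 3.61-fold higher (2.79 to 4.71) at 1.2 µM and 1.92-fold higher (1.38 to 2.65) in persisters. Listed cells gave ratios of 1.05-fold at 8 nM and 2.86-fold at 1.2 µM, and unlisted cells gave 2.82-fold and 3.93-fold. The listed untreated level was 7.96 CPM from 9 UMIs. Listed cells had 8.33, 11.3, 12.55, 15.1 and 13.8 CPM from 8 to 150 nM, all within 2-fold of it. They had 22.1, 25.2 and 22.75 CPM from 300 nM to 1.2 µM. Persisters had 1.88-fold less NRG1 (1.44 to 2.49) than the 1.2 µM adapted cells.

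In the PC9 comparisons with untreated cells, 3 of 6 measured members were apart at 8 nM, where 5.48% of all genes were, and 3 of 6 at 16 nM against 6.68%, with NRG1 higher and AREG and HBEGF lower. From 32 nM upward TGFA joined the lower ones, giving 4 of 6 at 32 nM against 7.77%, at 75 nM against 9.16%, at 150 nM against 9.4%, at 300 nM against 10.6%, at 600 nM against 10.9% and at 1.2 µM against 10.8%. In persisters it was 2 of 6 (AREG and HBEGF lower) against 21.6%. Between 1.2 µM and 8 nM it was 1 of 5 (HBEGF higher) against 3.45%. Between persisters and 1.2 µM adapted cells it was 1 of 5 (TGFA higher) against 9.28%.

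**Figure D3:**
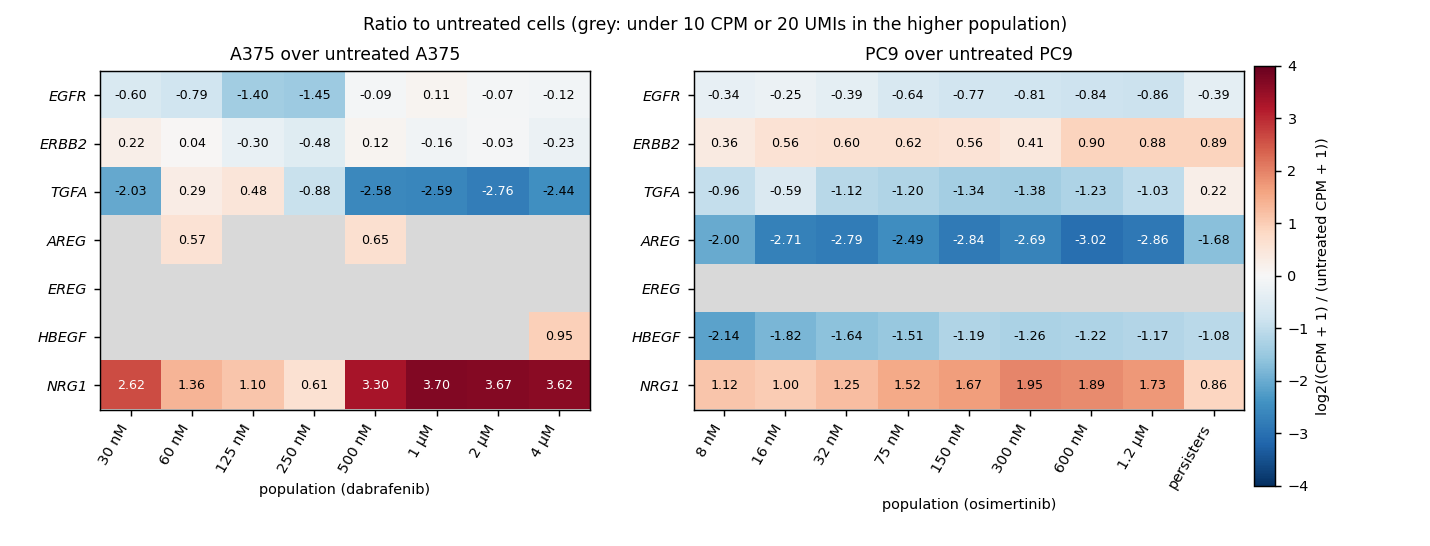
Log2 ratio of (CPM + 1) to that of the untreated cells of the same line for each gene (rows) and population (columns), A375 and PC9 side by side, with the color scale centred on 0 and grey for pairs under the 10 CPM and 20 UMI minimum. NRG1 is above 0 in every measured cell of the map, TGFA is below 0 in the PC9 adapted populations but at 0.22 in persisters, and EGFR reaches -1.45 in A375 at 250 nM.

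Untreated cells of the 2 lines differed in 5 of the 6 members measured, where 35.6% of all genes did. EGFR was 36.6-fold higher (33.7 to 39.8) in PC9, at 981 against 26.8 CPM. AREG was 5.08-fold (4.16 to 6.21) and HBEGF 7.90-fold (6.39 to 9.83) higher in PC9, whereas TGFA was 4.04-fold (3.74 to 4.37) and NRG1 3.03-fold (2.40 to 3.87) lower. ERBB2 was 1.33-fold lower (1.06 to 1.67). The NRG1 difference fell under 2-fold in listed cells, without cells of high UMI count and with every cell weighted equally (log2 ratios -0.49, -0.68 and -0.73). Each line was pooled and processed on its own, so line and pool cannot be told apart.

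The NRG1 level can be read beside its receptor ERBB3. In A375, ERBB3 had 183 CPM in untreated cells and 132, 184, 214, 187, 64.0, 27.3, 28.3 and 36.1 CPM from 30 nM to 4 µM, so it was 6.71-fold lower at 1 µM and 5.07-fold lower (4.49 to 5.75) at 4 µM, where NRG1 was at its highest levels. Listed cells gave 10.3-fold and 8.98-fold, and unlisted cells 4.84-fold and 3.40-fold. In PC9 ERBB3 went the other way, with 28.1 CPM in untreated cells, 41.1 to 51.6 in adapted cells and 61.7 in persisters. ERBB4, the other receptor of NRG1, reached the minimum of 10 CPM in 1 of the 19 populations, A375 at 30 nM, with 17.8 CPM against 9.10 in untreated cells and 4.98 at 4 µM.

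The share of cells with at least 1 UMI was compared after thinning each cell to 3000 UMIs, which leaves out 407 A375 and 699 PC9 cells that were shallower. In A375, NRG1 was seen in 3.61% of untreated cells and in 24.5%, 11.4%, 6.57%, 5.09%, 32.3%, 47.5%, 45.5% and 48.0% of cells from 30 nM to 4 µM. Without thinning the untreated share was 9.90% and the 4 µM share 74.5%. TGFA was seen in 47.0% of untreated cells, in 12.9%, 46.9%, 46.9% and 27.4% of cells from 30 to 250 nM and in 8.73 to 10.1% from 500 nM to 4 µM, against 78.5% in untreated cells and 23.5 to 25.5% from 500 nM upward without thinning. EGFR was seen in 7.67% of untreated A375 cells and 2.39% at 125 nM. No population is known to lack a member, so the lowest shares bound the part that free RNA could give.

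In PC9, EGFR was seen in 91.6% of untreated cells and 77.8% at 1.2 µM after thinning, and 82.4% in persisters. The share of cells with 4 or more thinned EGFR UMIs was 35.7% in untreated cells, 9.50% at 1.2 µM and 20.7% in persisters. AREG was seen in 9.16% of untreated cells, 0.692% at 1.2 µM and 2.57% in persisters (unthinned 19.7%, 1.98 to 4.15% over the adapted populations and 4.86%). HBEGF was seen in 11.2% of untreated cells, 2.65% at 8 nM and 5.24% at 1.2 µM. TGFA was seen in 18.6% of untreated cells, 6.98 to 12.6% over the adapted populations and 22.5% in persisters. NRG1 was seen in 1.99% of untreated cells, 8.80% at 1.2 µM and 4.74% in persisters.

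**Figure D4:**
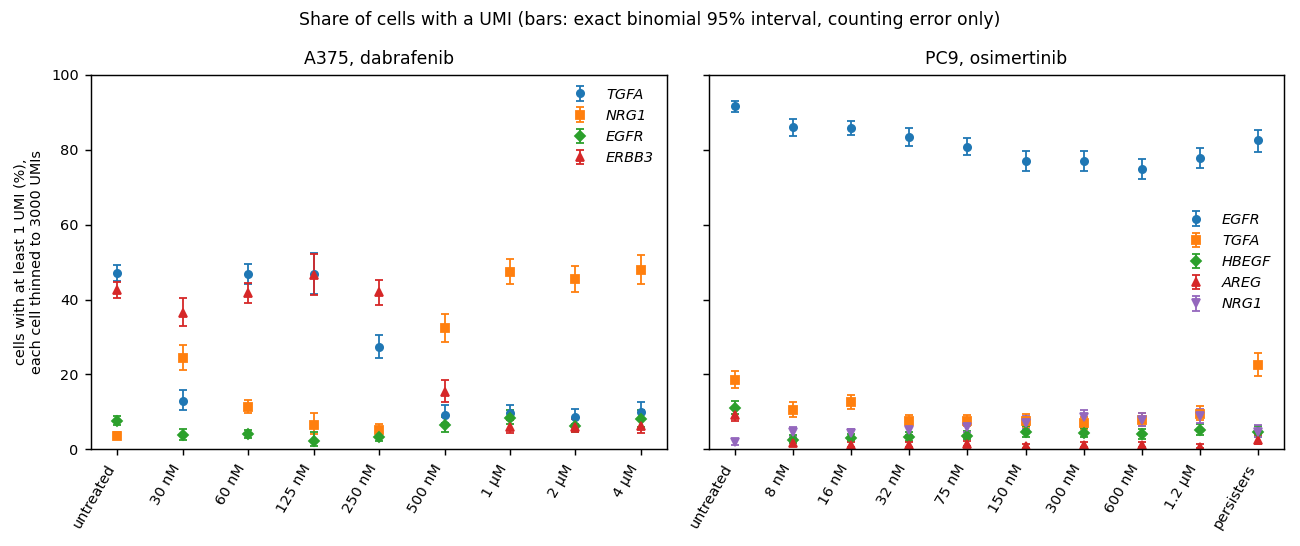
Percentage of cells with at least 1 UMI after thinning to 3000 UMIs per cell, by population, for TGFA, NRG1, EGFR and ERBB3 in A375 and for EGFR, TGFA, HBEGF, AREG and NRG1 in PC9; the bars are exact binomial 95% intervals for counting error. In A375 the NRG1 share is 3.61% in untreated cells and 48.0% at 4 µM while the TGFA share is 47.0% and 10.1%.

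How unevenly the UMIs were spread over cells is given as the variance over the mean of unthinned counts. NRG1 had 5.52 to 10.6 across the A375 populations and 1.32 to 1.71 across PC9, and TGFA 2.86 to 6.92 against 1.03 to 1.23. EGFR had 2.05 to 3.72 in PC9, where its level was far higher, and 1.12 to 1.72 in A375. ERBB2 stayed near the value of a Poisson count in both lines, at 0.985 to 1.14 and 0.911 to 1.07. This ratio grows with the level and with the spread of cell depth, so it describes these cells and does not compare the genes or the lines.

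Within the 60 nM A375 population, TGFA was found in a smaller share of the cells with NRG1 than of the cells without it. Of 156 thinned cells with NRG1, 19.9% (13.9 to 27.0) had a TGFA UMI, against 50.3% (47.5 to 53.2) of 1208 cells without NRG1. The TGFA shares were 13.6% and 49.2% at 125 nM and 9.09% and 28.4% at 250 nM. ERBB3 was found in 21.8% against 44.3% and EGFR in 10.3% (5.98 to 16.1) against 3.23% (2.31 to 4.39) of the 60 nM cells. At 30 nM, where the population had more NRG1 and less TGFA than untreated cells, the TGFA shares were 14.3% and 12.5%. At 1 µM they were 10.5% and 8.99%. At 250 nM EGFR was found in 18.2% (8.19 to 32.7) of 44 cells with NRG1, against 2.44% of 821 without. The intervals of the EGFR shares overlapped in the other populations, with 8.09% and 8.06% at 4 µM and 0 of 22 cells against 2.56% at 125 nM.

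The authors' clusters of listed cells also differed in these genes inside 1 population, which is given as a description only, since the genes used for clustering are not stated. At 60 nM, cluster 1 (409 cells) had 518 CPM of TGFA, 19.4 of NRG1, 240 of ERBB3 and 5.88 of EGFR. Cluster 4 (126 cells) had 30.4 of TGFA, 253 of NRG1, 14.7 of ERBB3 and 57.8 of EGFR, and cluster 3 (260 cells) had 52.8 of TGFA, 116 of NRG1, 176 of ERBB3 and 11.3 of EGFR. The 30 nM population held the last 2 kinds: cluster 3 (373 cells) had 125 CPM of NRG1 and 7.48 of EGFR, and cluster 4 (60 cells) had 251 of NRG1, 72.0 of EGFR and 14.4 of ERBB3. At 4 µM, NRG1 had 544 CPM in cluster 6 (165 cells) and 157 in cluster 7 (166 cells), with EGFR at 36.2 and 21.9. At 500 nM, AREG had 31.0 CPM in cluster 7 (116 cells) and 2.87 in cluster 6 (177 cells). In PC9, EGFR had 721 CPM in cluster 3 and 497 in cluster 4 at 150 nM, 725 and 449 at 300 nM, 738 and 431 at 600 nM, and 676 and 462 at 1.2 µM.

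**Figure D5:**
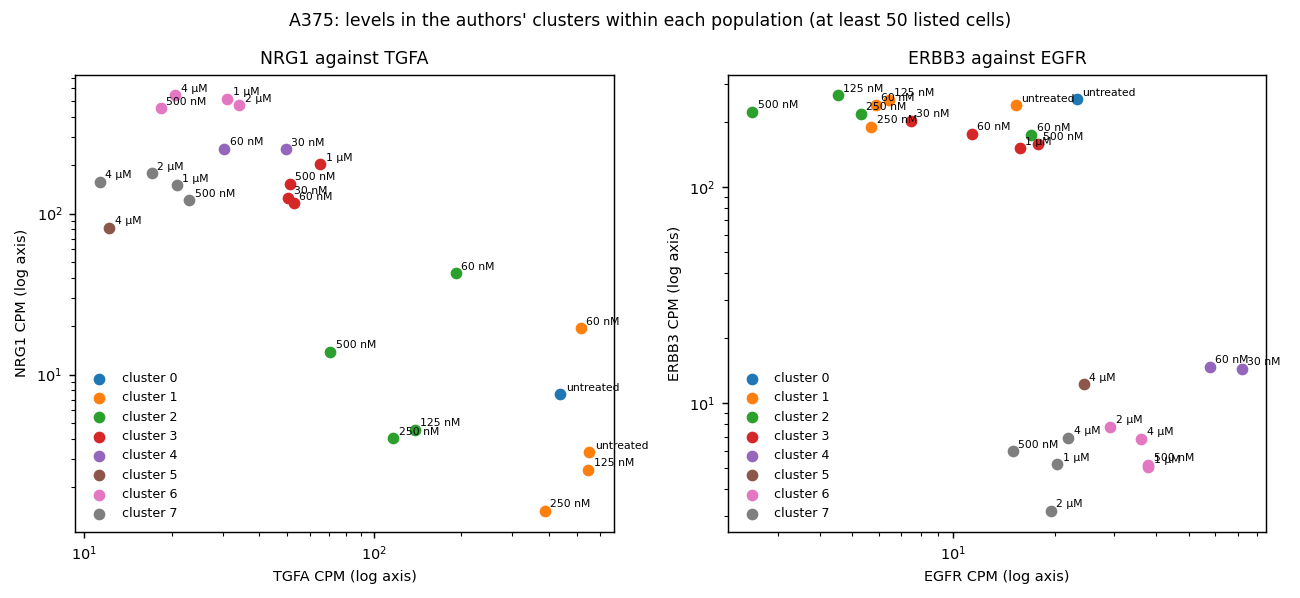
Levels within the authors' clusters of listed A375 cells, 1 point per cluster and population with at least 50 listed cells, labelled with the dose, on log axes in CPM: NRG1 against TGFA and ERBB3 against EGFR. Clusters with NRG1 at 116 CPM or more have TGFA at or under 65.2 CPM, and the cluster 4 points of 30 and 60 nM join high EGFR (72.0 and 57.8 CPM) with low ERBB3 (14.4 and 14.7 CPM).

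Other genes of the pathway came from lists chosen by function, and are given as counts among the measured genes beside the median of all genes. Of the 10 genes that respond to growth factor signalling, 7 were lower and 0 higher in A375 at 30 nM (median log2 ratio -1.29 against -0.07 for all genes), and 7 lower and 1 higher at 4 µM (-1.45 against -0.17). At 60 nM 0 were lower and 2 higher (0.04 against -0.06). The shares of all genes apart, in either direction, were 10.0%, 15.4% and 3.27% at these doses. The genes farthest from untreated cells at 4 µM were SPRY4, a feedback inhibitor (12.2-fold lower), the ETS factor ETV4 (7.47-fold lower), the cyclin CCND1 (4.12-fold lower) and the zinc finger factor EGR1, which was higher (90.5 against 29.2 CPM). In PC9, of 9 measured, 4 were lower and 2 higher at 8 nM (-0.64 against 0.00), 5 lower and 1 higher at 1.2 µM (-1.02 against 0.02), and 4 lower and 2 higher in persisters (-0.85 against -0.04), where 5.48%, 10.8% and 21.6% of all genes were apart. DUSP6, the ERK phosphatase, was 12.8-fold lower at 8 nM, 16.5-fold lower at 1.2 µM and 8.75-fold lower in persisters, while EGR1 was 5.01-fold, 9.27-fold and 10.7-fold higher.

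Among the other ERBB ligands, 2 of 3 measured were higher in A375 at 4 µM, where 15.4% of all genes were apart. NRG3, a ligand of ERBB4, stood at 31.6 CPM against 2.91 CPM in untreated cells, a ratio of 10.8-fold (8.19 to 14.5). EGF stood at 13.1 CPM against 3.32 CPM, a ratio of 3.94-fold (2.89 to 5.41). In PC9 persisters BTC, which binds EGFR and ERBB4, was 2.19-fold higher (1.48 to 3.24). Of the genes that inhibit or degrade the receptors, 11 were measured in A375 and 9 in PC9. At 4 µM 3 were lower (SPRY2 3.17-fold, LRIG3 2.64-fold and SH3KBP1 2.31-fold) and the ubiquitin ligase gene CBLB was 2.15-fold higher, and in PC9 persisters CBLB was 5.88-fold higher and no other gene of this list was apart. Of the adaptors and first effectors, 0 of 9 were apart in A375 at 4 µM, and in PC9 persisters 3 of 9 were higher: SOS2 2.98-fold, GAB1 2.04-fold and PIK3CA 2.02-fold. Of the ligand-shedding genes, 0 of 5 were apart in A375 at 4 µM and 1 of 6 was higher in persisters (ADAM10, 2.01-fold). In A375 at 4 µM 15.4% and in persisters 21.6% of all genes were apart, and nothing is read from these small counts.

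The genes whose levels followed a member most closely over the populations of a line were found by Pearson's r on log2(CPM + 1), over 9 populations and 7665 candidates in A375 and over 10 populations and 7235 candidates in PC9. With so few points and so many candidates, these values are a description and carry no test. Among the closest to NRG1 in A375 were BDNF (r = 0.995), TMEM136 (0.990), IL18 (0.990) and CCDC80 (0.989), and to TGFA in A375 TSPAN13 (0.996), ABHD17C (0.995), SYTL5 (0.995), DYNLT3 (0.993) and GOLGA4 (0.993). For EGFR in A375 they began with FERMT1 (0.987) and MRPL58 (0.986). In PC9 the closest to AREG were RASA1 (0.983) and SLC37A1 (0.981), to HBEGF STAM (0.980), to TGFA DSG2 (0.967), to NRG1 H3F3A (0.995) and GSTP1 (0.989), to EGFR RPL24 (0.979) and MED10 (0.976), and to ERBB2 SLC20A2 (0.951). These points share the untreated cells, the pool and the depth of each population.

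EGFR lies at chr7:55019021-55211628 and ERBB2 at chr17:39687914-39730426, both on the plus strand (GRCh38, GENCODE 29). The 20 measured genes nearest to EGFR had a median log2 ratio of 0.50 between untreated PC9 and A375 cells, against a median of -0.18 over all genes and a log2 ratio of 5.14 for EGFR. Of the 20, 8 were higher and 0 lower. The 35.6% of all genes that were apart between the lines counts both directions, and the share that were higher was not counted separately. The neighbours farthest apart were IGFBP3 (432 against 25.5 CPM), VOPP1 (249 against 37.9), SEC61G (577 against 118) and COBL (95.5 against 19.8). For ERBB2 the ratio was -0.37 and that of its 20 neighbours also -0.37, with 1 higher and 4 lower. Between 1.2 µM and untreated PC9 cells EGFR stood at -0.86 and its neighbours at -0.33.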

How the data were processed

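Tagged cells of each line were pooled and profiled with 10x Chromium 3′ chemistry, per the labels' protocols, and the 2 A375 sequencing runs share 1 table. The authors' tables give unnormalized counts of UMIs for every gene in every cell, made with Cell Ranger 7.0.0 on GRCh38, per the submitters' processing notes; filters applied before deposition are not given in the sources used here. Populations were taken from the suffixes of the cell names that the labels describe. UMI counts were summed per population and divided by its total to give CPM. No doublet caller was run, and no p-value was computed because each population is 1 culture. Intervals and floors cover counting error only, and a count of 0 was read as up to 3 counts. The ratio code was tested on simulated data. The members and gene lists were chosen with earlier results of these data known. All 7 members are named. From each gene list at most 4 genes are named per comparison, those with the largest ratio among measured genes, and likewise up to 4 neighbours by position. Up to 5 genes most like a member were considered, with candidates at 25 CPM and 50 UMIs or more, and 1 of them is not reported here. Alternatives used other sets of cells, TMM scaling (edgeR 4.0.16, R 4.3.3), other totals, weights, depths, minimums, folds and pseudocounts. Other work used Python 3.11.15, numpy 2.4.6, scipy 1.17.1, pandas 2.3.3 and matplotlib 3.10.9, with GENCODE 29 for positions and RefSeq for promoters.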

Additional observations from a re-analysis of the deposited data

Results flagged for a closer look

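TGFA, the EGFR ligand, was below its untreated level in PC9 cells adapted to osimertinib and, over all cells, slightly above it in persisters. The log2 ratio to untreated cells lay between -1.38 at 300 nM and -0.59 at 16 nM in the 8 adapted populations and was 0.22 in the persisters. It is listed because every adapted population lay below untreated cells while the single persister population lay above them. The persister value depends on the cells used: it was 84.3 against 82.2 CPM in listed cells and 62.5 against 66.0 CPM in unlisted cells, below untreated cells. The difference was not tested, since each population is 1 culture, and the persisters were exposed for 9 days in 1 step while the adapted cells went through a dose escalation.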

How the results depend on the processing

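Of 990 alternative values of the 110 log2 ratios, 880 were counted as unchanged. Called values counted so if they stayed called in the same direction, whatever the size of the shift. Uncalled values counted so if they stayed uncalled and moved within counting error, in either direction. Of the rest, 57 uncalled values moved by more than counting error, 34 fell under the bound or the minimum, 19 passed it and 0 changed direction as a called value. The filter on mitochondrial UMIs left out 0 PC9 cells, so it could not change any ratio within PC9, and those values counted as unchanged by construction. Other minimums and fold bounds were not among the 990 values. Their effect on the counts is given below, so 880 does not cover them. TMM scaling shifted all log2 ratios of a comparison together, by 0.15 in A375 at 2 µM, by -0.10 in PC9 at 600 nM and by 0.18 between the untreated lines. Of 117 alternative counts of members apart, 92 stayed within 1.5 times.

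The counts that changed rest on 1 to 5 genes. With a minimum of 50 CPM, the count went from 3 to 0 for PC9 at 8 nM, from 4 to 1 (TGFA) at 1.2 µM, from 2 to 0 for persisters, from 1 to 0 for PC9 at 1.2 µM against 8 nM, and from 5 to 2 (EGFR and TGFA) between the untreated lines. With a bound of 3-fold it went from 4 to 2 (AREG and NRG1) at 1.2 µM, from 2 to 1 (AREG) for persisters, and to 0 for A375 at 4 µM against 30 nM, PC9 at 1.2 µM against 8 nM and persisters against 1.2 µM. On log2(CPM + 5) it was 1 (AREG) for persisters, and 0 for A375 at 4 µM against 30 nM and PC9 at 1.2 µM against 8 nM. With no minimum it was 2 for A375 at 4 µM against 30 nM (EREG and NRG1), 2 for PC9 at 1.2 µM against 8 nM (AREG and HBEGF) and 2 for persisters against 1.2 µM (AREG and TGFA). For A375 at 4 µM against 30 nM it was 0 in listed cells, 0 without cells of at least 20% mitochondrial UMIs and 0 after thinning. For PC9 at 1.2 µM against 8 nM it was 2 in listed cells (HBEGF and NRG1), 0 with cells weighted equally, 0 on log2(CPM + 1) and 0 outside the authors' tables, an alternative chosen after seeing the data. For persisters against 1.2 µM it was 2 without mitochondrial and ribosomal genes in the totals (AREG and TGFA) and 2 outside the authors' tables. Over all levels, 47 of 119 pairs of member and population were apart by 2-fold, 18 with a minimum of 50 CPM and 27 with a bound of 3-fold. The cause of these changes was not tested, beyond the fewer genes that a stricter minimum or bound admits.

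AREG, EREG, HBEGF and ERBB2 lay at few UMIs in most populations, so many small differences in their levels lay within counting error at this depth. No paired analysis was possible because no result comes from a test and each population is 1 culture.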
